A study of Ovis aries with 18 samples.

Results

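Allelic imbalance (AI) in expression, the unequal share of RNA-Seq reads from the 2 alleles of a heterozygous animal, was examined here in interferon, cytokine and innate immune genes. The members were taken by gene symbol from the table of all SNPs, with a pattern that covers interferon receptors and interferon-stimulated genes, the JAK and STAT proteins, interleukins, chemokines and their receptors, complement components, Toll-like and TNF receptors, the NF-kB proteins, CD surface antigens, galectins and macrophage receptors. SNPs on chromosome X were left out, as were OAS2 and CD36. The pattern found 446 SNPs in 94 genes on 22 chromosomes, of 24355 SNPs in 5810 genes. A SNP entered the report with the reads of the animals called heterozygous, and 445 of the 446 had at least 1 such animal. The pattern reads only letters, so 6 of the genes (C1QTNF1, C1QTNF6, CD320, IRF2BP1, ISG20L2 and TRAF3IP1) are known for roles outside these systems and are counted apart.

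The tissue was perirenal fat, a depot with brown adipocytes before birth, from 18 pure bred Merino fetuses at day 132 of gestation, 16 labelled female and 2 labelled male. All were singletons and half-sibs from a common sire and unrelated ewes, all were untreated and wild type, and together they form 1 condition, so there is no treated group and no control group. Each fetus is a separate sample. The reference allele is the base of the Oar v3.1 genome, and the share of reads carrying it is called the reference share, where 0.5 means equal expression of both alleles.

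Interferons are secreted proteins that warn cells of a virus. They bind paired receptors, which activate JAK kinases, STAT factors and interferon regulatory factors and thereby switch on a set of antiviral genes. Complement is a cascade of plasma proteins, C1, C4 and factor B among them. It ends in a pore built from C5b to C9 on a target membrane, and fat tissue is one of its known sources. Toll-like and TNF receptors signal through TRAF adaptors to NF-kB, which inhibitors of the I-kappa-B family hold in the cytoplasm.

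Reads summed over all SNPs ranged from 2970824 to 5334585 per animal, and the median member SNP had 9 heterozygous animals with 71.6 reads each. Of 6 brown adipocyte markers 5 had SNPs in the table, with a summed level of 4356 to 7024 reads per 1000000 SNP reads across the 18 animals. Macrophage markers had SNPs in 7 of 9 genes, at a summed level of 74.4 to 129, and none of 6 T or B cell markers had a SNP in the table. RS929, labelled female, was heterozygous at 29.1% of the 244 SNPs on chromosome X, beside 25.4% and 32.4% in the animals labelled male and 54.1% in the next lowest female. Without RS929, 196 member SNPs in 63 member genes were called, against 197 and 69 with it.

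At 197 of 445 member SNPs (44.3%) the allele reads, summed over heterozygous animals, were unequal at an adjusted P below 0.05. This was a two-sided Poisson likelihood ratio test with Benjamini-Hochberg adjustment over the whole table, in which 38.0% of 24244 SNPs were called. The reference allele was higher at 158 member SNPs (35.5%, background 28.9%) and the alternate allele at 39 (8.76%, background 9.01%). At least 1 SNP had AI in 69 of 94 genes (73.4%), while the share was 58.5% over all genes with a tested SNP. Member SNPs lay a median of 0.0367 away from a share of 0.5, and all SNPs 0.0339. The median reference share of all SNPs was 0.519, and when that value replaced 0.5 as the null, 180 member SNPs were called, of which 114 had a higher reference allele. Over the 24244 SNPs of the whole table that null gave 8391 calls, of which 4606 (54.9%) had a higher reference allele.

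The likelihood ratio test adds the reads of different fetuses as if they came from 1 animal. The spread between animals enters the error of a quasi-binomial F test, which called 126 of 444 member SNPs (28.4%, background 24.5%). The spread itself was measured as a dispersion, the Pearson chi-square of the reference share over animals divided by its degrees of freedom, so that 1 is counting error alone. By that chi-square test 85 of 444 member SNPs (19.1%) differed between animals, against a background of 15.4%. Every heterozygous animal had the same allele higher at 68 of 440 member SNPs with at least 5 such animals (15.5%, background 13.2%). No test of the set as a whole was run.

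**Figure D1:**
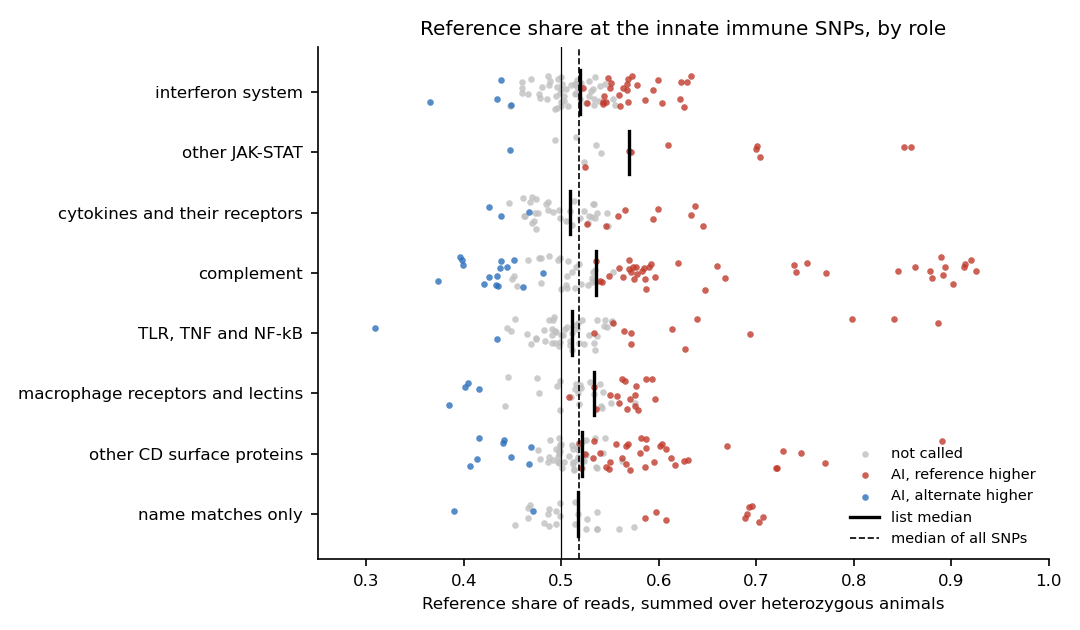
Reference share of each member SNP, pooled over heterozygous animals, for the 8 role groups, coloured by the AI call, with a thick bar at the median of each group, a solid line at 0.5 and a dashed line at the median of all SNPs. Complement SNPs spread from 0.374 to 0.925, and most SNPs of the interferon system lie near 0.5.

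The groups are given here by their counts, to be read against the 38.0% of SNPs called in the whole table. In the interferon system 31 of 82 SNPs (37.8%) had AI, close to that background, in 16 of 21 genes, with 27 higher on the reference allele and 4 on the alternate allele. Complement held 55 SNPs with AI of 83 (66.3%), in 9 of 10 genes, with 40 SNPs higher on the reference allele and 15 on the alternate allele. Much of this came from C4 (21 of 27) and C7 (12 of 13), and complement had AI at 34 of 56 SNPs (60.7%) without C4 and at 22 of 43 (51.2%) without both. The Toll-like receptor, TNF and NF-kB group had AI at 14 of 58 SNPs (24.1%) in 9 of 17 genes, and cytokines and their receptors at 12 of 45 (26.7%), both below the background. Macrophage receptors and lectins had AI at 21 of 43 (48.8%), the other CD surface proteins 43 of 86 (50%), the other JAK and STAT genes 10 of 15 (66.7%) and the 6 genes matched by name alone 11 of 33 (33.3%). The median dispersion was 2.48 in complement, 1.23 in the interferon system and 1.41 over all SNPs. SNPs of 1 gene share reads and animals, so these shares are not over independent sites.

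All 3 interferon receptor genes of the table had AI, each with the reference allele higher. IFNGR2, the second chain of the interferon gamma receptor, had 3 of 5 SNPs called. At 1:120330549 (chromosome 1, synonymous) the reference share of IFNGR2 was 0.603 over 6 fetuses, which ranged from 0.525 to 0.681 with a median of 0.588 (likelihood ratio adjusted P = 4.64e-11). IFNAR1E, which the RefSeq gene table lists as a synonym of IFNAR1, a chain of the receptor for interferon alpha and beta, had 5 of 7 SNPs called, all with the reference allele higher. Its SNP at 1:120425850 had a share of 0.594, with 8 of 8 fetuses above 0.5 and a range of 0.527 to 0.792 (likelihood ratio adjusted P = 4.93e-07). Both genes lie on chromosome 1. IFNGR1, the ligand-binding chain for interferon gamma, was closer to 0.5, at 0.543 for a missense SNP over 13 fetuses, 9 of them above 0.5.

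JAK1, the kinase attached to these receptors, had the reference allele higher at 4 of 10 SNPs. At 1:40032048 all 10 heterozygous fetuses lay between 0.536 and 0.606 (mean 0.573 ± 0.0287, SD, n = 10), and the test across animals gave an exact sign-flip permutation p of 0.00195. At another JAK1 SNP, 1:40073315, the alleles were equal in the sum (0.502) but not within the fetuses. There RS926 had a reference share of 0.320, RS933 0.406, RS910 0.483, RS943 0.566 and RS937 0.671, and at the neighbouring SNP 9 bases away the same fetuses had 0.381, 0.400, 0.477, 0.536 and 0.678. The 5 fetuses kept the same order at both sites, which are close enough to share most of their reads, and the same 2 were above 0.5. The dispersion at the first of them was 9.00 and the fetuses differed at an adjusted P of 8.45e-06 (Pearson chi-square over all SNPs). TYK2, the other kinase of the type I receptor, reached 0.546 at 1 of 9 SNPs, with no fetus of 7 below 0.5.

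Of the transcription factors, IRF9, the DNA-binding subunit of the factor that type I interferon activates, had the reference allele higher in 9 of 9 fetuses at 7:20607031 (0.508 to 0.616, pooled 0.568, likelihood ratio adjusted P = 0.00068). STAT2, its partner in that factor, was at 0.561 at its SNP with the smaller P. IRF2, a repressor of interferon genes, and IRF3, which virus sensors activate, leaned the other way, to the alternate allele. IRF2 had a share of 0.438 at 26:13625795, with 7 of 9 fetuses below 0.5 and 2 at 0.5. IRF3 had 0.449 at 14:55091809, with 9 of 11 fetuses below 0.5. IRF1, the first interferon regulatory factor described, was not called at either of its SNPs (0.553 at the SNP with the smaller P).

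**Figure D2:**
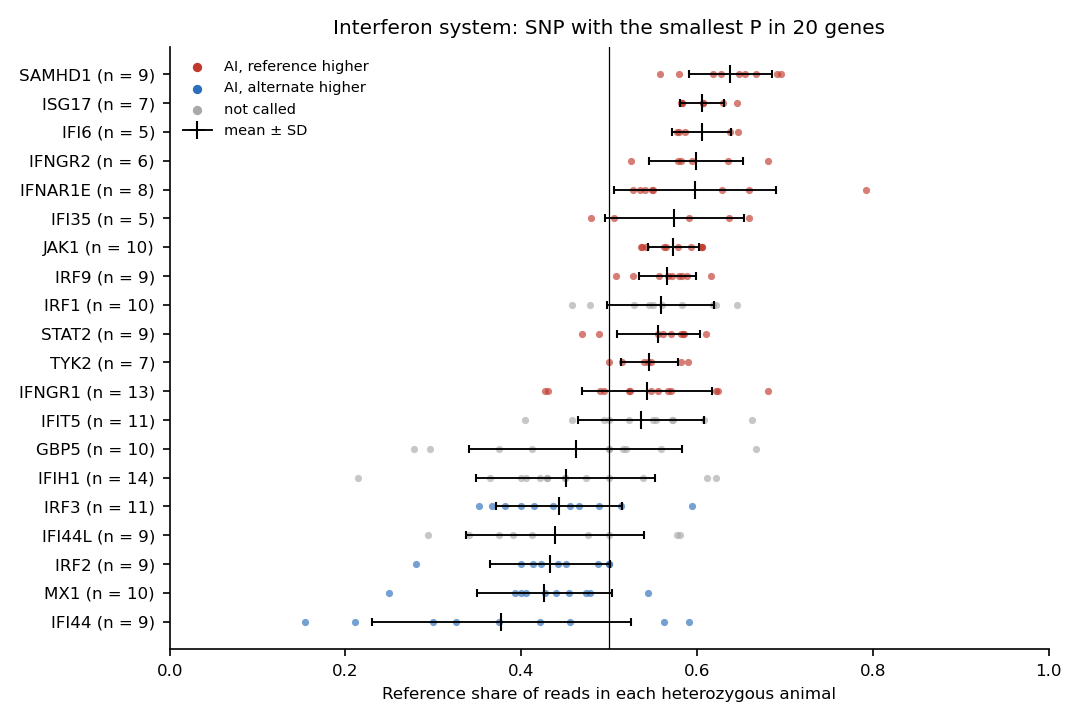
Reference share of each heterozygous fetus (points) at the SNP with the smallest P of 20 interferon-system genes, coloured by the AI call of the SNP, with the mean and SD over fetuses and a line at 0.5. The points of SAMHD1, ISG17, IRF9, JAK1, IFNGR2, IFNAR1E and IFI6 lie wholly above 0.5, and those of IFI44 run from 0.154 to 0.591.

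SAMHD1, an enzyme that destroys DNA building blocks and so starves retroviruses, had AI at 4 of 5 SNPs. The called SNPs on chromosome 13 were heterozygous in the same 9 fetuses, with pooled shares of 0.622 to 0.633. At 13:65509315 the 9 fetuses lay between 0.558 and 0.696 with a median of 0.648 (mean 0.638 ± 0.0471, SD, n = 9), none below 0.5, and the likelihood ratio adjusted P was 4.23e-09. A missense SNP at 13:65501356 had 0.545 and was not called. ISG17, listed by RefSeq as a synonym of ISG15, the ubiquitin-like protein that interferon induces, had both SNPs called. Its 7 fetuses at 12:49538054 lay in the narrow range of 0.582 to 0.645 (pooled 0.599, likelihood ratio adjusted P = 0.000369), with a dispersion of 0.125.

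IFI6, an interferon-induced protein of mitochondria and the endoplasmic reticulum, differed between its SNPs. At the missense SNP 2:238539834 RS937 had 0.577, RS940 0.580, RS926 0.586, RS933 0.637 and RS947 0.646, all on the reference side (pooled 0.621, likelihood ratio adjusted P = 5.95e-19). With 5 animals the exact sign-flip permutation test cannot go below 0.0625, which is what it gave. The other IFI6 SNP, 2:238538562, was at 0.477 over 13 fetuses and was not called. IFI35, an interferon-induced protein with a leucine zipper, had the reference allele higher at both SNPs (0.543 and 0.577).

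IFI44 and MX1 were the interferon-stimulated genes with the alternate allele higher. In IFI44, an antiviral protein that interferon induces, the share at 1:54493769 was 0.365 over 9 fetuses, from 0.154 to 0.591 with 7 below 0.5 (likelihood ratio adjusted P = 2.53e-05). MX1, a GTPase that traps viral particles, had 0.434 at 1:259750739, with 9 of 10 fetuses below 0.5, and its other 5 SNPs were not called. No SNP was called in IFIH1 (a sensor of double-stranded RNA), IFIT5 (which binds viral RNA), GBP5 (a guanylate-binding protein of the interferon gamma response) or IFI44L. In those genes and IRF1 the SNPs with the smallest P had shares of 0.448 to 0.553, and calls appeared only without RS919 for IFIT5 (adjusted P = 0.0291) and without RS933 for IRF1 (adjusted P = 0.0424).

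The quasi-binomial F test was read at the SNP with the smallest P of each gene. It ended the calls of IFI35, STAT2, TYK2, IFNGR1, MX1 and IRF3 there (adjusted P of 0.0506 to 0.108). Single animals also decided some of these calls by the likelihood ratio test. The adjusted P was 0.0620 for IFNGR1 without RS929 and 0.0740 for MX1 without RS930. It was 0.0615 and 0.0612 for IFI35 11:42514316 without RS905 or RS937. For TYK2 it was 0.0560 to 0.128 without RS905, RS917, RS929, RS930 or RS940. IFI35 had AI at a further SNP, 11:42501646, to which these values do not apply.

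The read depth of 5 interferon-stimulated genes varied strongly between fetuses, and that of others varied moderately or little. Depth is given as reads per SNP per 1000000 SNP reads, over all 18 animals whatever their genotype, and a bulk tissue sample cannot tell more cells of a type from more RNA per cell. The following was chosen after the values were seen and is a description. The coefficient of variation (CV) over fetuses was 0.781 for IFI6, 0.650 for ISG17, 0.517 for IFI44L, 0.470 for MX1 and 0.432 for IFI44. The median over all 5810 genes was 0.155, with the 90th percentile at 0.279. GBP5 (0.270), SAMHD1 (0.259) and IFIH1 (0.236) lay between that median and that percentile. Among the other interferon-stimulated genes, IFIT5 had a CV of 0.152 and IFI35 of 0.169, both close to that median. TYK2 stayed within 17.1 to 22.9 in all 18 fetuses, with a CV of 0.0827.

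IFI6 had a depth of 11.5 in RS918, a median of 34.8 and 159 in RS947. ISG17 ranged from 2.17 in RS910 through a median of 10.9 to 31.5 in RS947, and MX1 from 7.26 in RS943 through 12.6 to 34.3 in RS947. One fetus, RS947, was therefore at the top of each of these genes, where the other 17 reached 96.2 for IFI6, 18.4 for ISG17 and 19.8 for MX1. RS947 had the highest depth in 8 of 21 interferon-system genes (IFI6, ISG17, IFI44L, MX1, IFI44, GBP5, IRF9 and IFIH1) and in 14 of all 94 members, against 4.49% of the 5810 genes. The lowest depth was in RS910 for 5 and in RS918 for 4 of the 21 genes, while these fetuses were lowest in 6.59% and 7.80% of all genes. The summed level of the 7 macrophage markers was highest in RS947 (129) and lowest in RS918 (74.4), with 112 in RS910 and a median of 105. In RS947 C1QA (24.4), C1QB (31.7) and C1QC (35.6) held most of that sum. Of the 7 markers CD14 alone was below its own median there (5.97 against 7.07). The part of the macrophage level in the depth of the interferon genes was not tested. The brown adipocyte markers were at 5843 in RS947, 5158 in RS910 and 5263 in RS918, near their median of 5588. Without RS947 the CVs were 0.593 for IFI6, 0.541 for ISG17, 0.390 for IFI44L, 0.331 for MX1 and 0.388 for IFI44, all still above that 90th percentile. Among the genes upstream in the pathway, IFNAR1E ranged from 13.9 to 25.3 and JAK1 from 47.3 to 76.9 over the 18 fetuses.

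**Figure D3:**
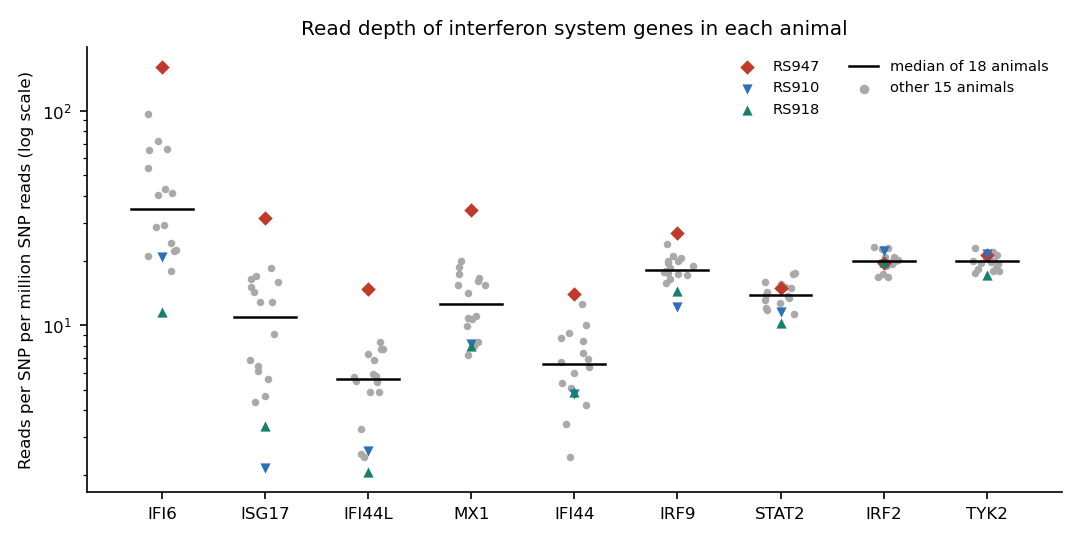
Read depth of 9 interferon-system genes in each of the 18 fetuses, as reads per SNP per 1000000 SNP reads on a log axis, with RS947, RS910 and RS918 marked and a bar at the median. IFI6 spans 11.5 to 159, whereas TYK2 spans 17.1 to 22.9.

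STAT5B, which carries growth hormone and interleukin signals, held the largest reference shares among the JAK and STAT genes. At 11:41808569 all 18 fetuses were called heterozygous, and their shares lay between 0.750 and 0.909 with a median of 0.863 (mean 0.855 ± 0.0475, SD, n = 18). Its likelihood ratio adjusted P was 2.52e-147 and its dispersion 1.07. The SNP 9 bases away had 0.851 and 3 SNPs around 41808237 had 0.700 to 0.703, again with all 18 fetuses heterozygous. The 2 STAT5B SNPs with fewer heterozygous fetuses, 41814840 and 41827743, were at 0.523 and 0.572. STAT5A, its neighbour and close paralogue, with which it could share reads, had 0.609 at a splice region SNP at 11:41895726, with 6 of 6 fetuses between 0.563 and 0.637 (likelihood ratio adjusted P = 4.64e-06). With no homozygous fetus at 5 of the STAT5B sites, alternate reads in homozygous animals could not be checked there.

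The complement genes are given in the order of the cascade. The C1 complex, which starts the classical pathway, consists of C1q and the proteases C1R and C1S. In C1QB, a chain of C1q, 4 of 4 SNPs had the alternate allele higher. All 4 were heterozygous in the same 10 fetuses. Those at 243053670 and 243053671 are adjoining bases that share almost all their reads, and do not count as separate imbalances. At the missense SNP 2:243053671 all 10 fetuses were below 0.5, from 0.225 to 0.489 with a median of 0.378 (likelihood ratio adjusted P = 4.4e-08, exact sign-flip permutation p = 0.00195). C1QC, the next chain on the chromosome, had the opposite direction at 2:243070422, with 10 of 10 fetuses between 0.518 and 0.635. C1QA, the remaining chain, was not called at either SNP (0.450 at 2:243075730, likelihood ratio adjusted P = 0.0686), and was called when RS910, RS937 or RS947 was left out (0.0437 to 0.0471).

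C1R had 5 of 9 SNPs called and C1S, its substrate and neighbour, 2 of 14. The C1R SNP at 3:207333433 was above 0.5 in 10 of 10 fetuses, from 0.514 to 0.838 with a median of 0.646 (pooled 0.660, likelihood ratio adjusted P = 4.7e-21), and its fetuses differed (dispersion 4.40). The best C1S SNP, 3:207363754, had 0.596 in 9 fetuses, 8 of them above 0.5. In both genes the called SNPs went in both directions, with 1 alternate SNP each.

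C4, which C1S cleaves, had 27 SNPs in 2 stretches of chromosome 20 that behaved differently. The 6 SNPs from 26463944 to 26474680 had shares of 0.452 to 0.592 with a median of 0.519, and 2 were called, 1 in each direction. The 21 SNPs from 26502900 to 26515181 had shares of 0.374 to 0.925 with a median of 0.863, and 17 were called for the reference and 2 for the alternate allele. Within the second stretch 12 SNPs between 26510870 and 26515180 were above 0.8, with 4 to 15 heterozygous fetuses each. At 20:26502900 all 18 fetuses were heterozygous, from 0.638 to 0.890 with a median of 0.780. At the missense SNP 20:26514617 the 6 fetuses were almost identical, from 0.913 to 0.934 (likelihood ratio adjusted P = 3.75e-188, dispersion 0.162).

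The C4 SNP at the end of that stretch stood in contrast. At 20:26515181, a missense SNP next to the ones above, the 12 fetuses ran from 0.0769 to 0.571 with a median of 0.474, and the pooled share was 0.374. The dispersion was 18.7 and the fetuses differed at an adjusted P of 5.73e-36. Homozygous reference animals should hold no alternate reads, and over all member SNPs with at least 20 such reads the median was 0%. At 12 C4 SNPs they held 2.48% to 5.37% alternate reads. Over all members 21 of 360 SNPs passed 2% (5.83%, against 3.16% of all SNPs). Of the 21, 20 had AI, each with the reference allele higher. Over all genes 597 SNPs passed 2%, of which 523 had AI and 518 had the reference allele higher. As background, sheep are known to carry near-identical copies of C4, so the C4 shares are uncertain as allele shares of 1 gene, and whether reads of another copy were counted was not tested.

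**Figure D4:**
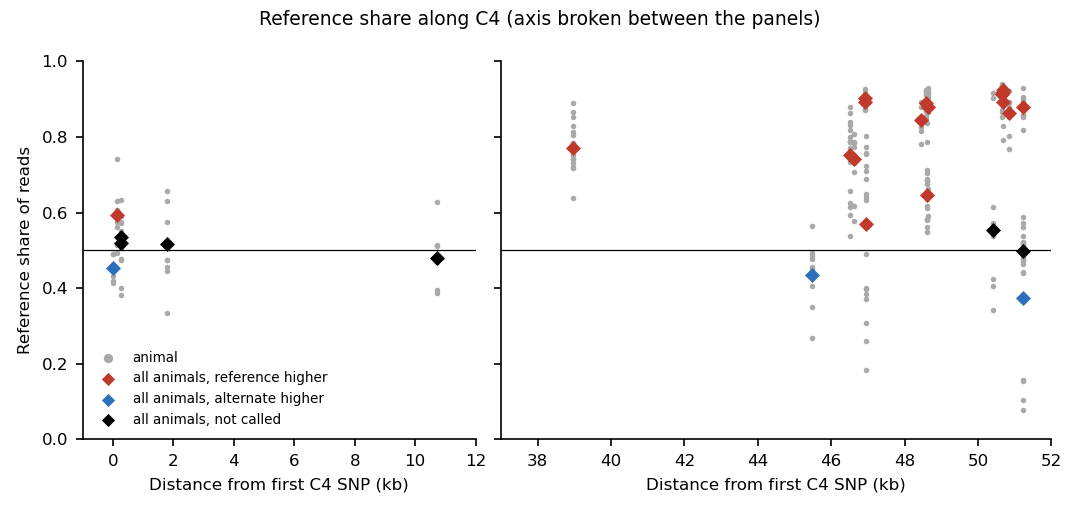
Reference share at the 27 C4 SNPs against the distance from the first of them in kilobases, in 2 panels for the 2 stretches, with grey points for heterozygous fetuses and diamonds for their pooled reads, coloured by the AI call. The pooled shares of the first stretch stay between 0.452 and 0.592, and 12 SNPs of the second lie above 0.8.

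CFB encodes factor B, the protease of the alternative pathway, and lies next to C4 on chromosome 20. All 3 CFB SNPs were called. At 20:26547294 the 7 fetuses ranged from 0.644 to 0.852 with a median of 0.705 (pooled 0.739, likelihood ratio adjusted P = 1.26e-37), and at 20:26546392 the pooled share was 0.668. At the missense SNP 20:26545126 the alternate allele was higher, with RS919 at 0.152, RS929 at 0.254, RS940 at 0.417, RS910 at 0.453, RS943 at 0.495 and RS902 at 0.507. RS919 and RS929 lay far below the other 4 fetuses, which were near 0.5 or just under it. The quasi-binomial F test ended that call (adjusted P = 0.0701).

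C7, a component of the membrane pore, had the largest dispersion between fetuses of all member genes, 41.5 at 16:33499870, a measure that grows with depth (539 reads per fetus there). In the shares themselves the SD over fetuses was 0.139 at that SNP, against 0.192 at C4 20:26515181. Of its 13 SNPs 12 had AI and 12 differed between animals, and its depth was 52.3 to 214 reads per SNP per 1000000 SNP reads. A run of 6 SNPs from 33499870 to 33519155 on chromosome 16 (19285 bp) was heterozygous in a common set of 11 fetuses. At 2 of the SNPs the shares ran opposite to those of the first SNP over the fetuses, and these 2 were mirrored. Each fetus then had nearly 1 value over all 6. The SNPs to mirror were chosen from these same shares, so the agreement at those 2 is partly built in. The mean share over the run was 0.799 in RS926, 0.789 in RS953, 0.650 in RS943, 0.642 in RS919, 0.550 in RS930 and 0.537 in RS937. It was 0.531 in RS929, 0.467 in RS947, 0.423 in RS969, 0.399 in RS940 and 0.396 in RS920. Thus the mean over the run was above 0.5 in 7 fetuses and below it in 4, with a mean over fetuses of 0.562 ± 0.144 (SD, n = 11). Some fetuses were near equality, and RS929 (0.467 to 0.571) and RS947 (0.431 to 0.502) crossed 0.5 within the run.

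The values of a fetus within the C7 run differed by a median of 0.0561 between SNPs and by at most 0.103, in RS929. The difference between fetuses was as large as 0.799 against 0.396. At 16:33511751 the dispersion was 40.8 and the fetuses differed at an adjusted P of 6.97e-79, while the pooled share was 0.587 and the exact sign-flip permutation p was 0.145. The pooled call at this SNP therefore does not describe a direction that the fetuses share. At 16:33499870 and 16:33519059 the quasi-binomial F test ended the call (adjusted P of 0.103 and 0.0525).

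The other C7 SNPs were heterozygous in other sets of fetuses. Over 4 SNPs from 33485698 to 33487735 (2037 bp) RS905 had a mean share of 0.635, RS930 0.593, RS929 0.574, RS937 0.557, RS933 0.526 and RS903 0.486, with a range over the SNPs of at most 0.0474 in any fetus. Here 5 of 6 fetuses leaned to the reference allele. At 33499917 all 5 fetuses were above 0.5 (0.573 to 0.652), and at 33528251 all 5 were below it (0.371 to 0.473).

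**Figure D5:**
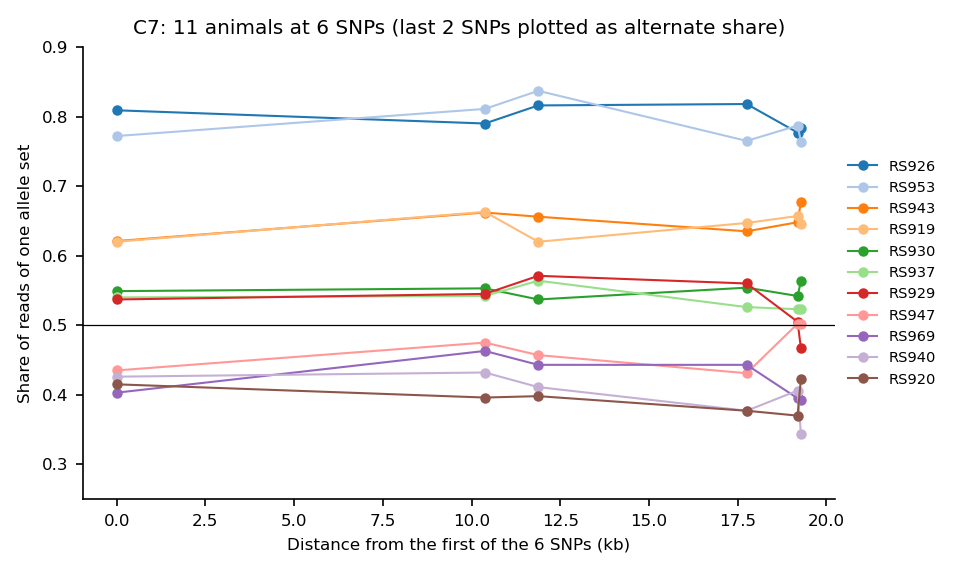
Reference share at the 6 C7 SNPs of the run, against distance from the first in kilobases, with a line for each of the 11 heterozygous fetuses and the last 2 SNPs plotted as the alternate share. The points of a fetus lie within 0.103 of each other, and the means run from 0.396 to 0.799.

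CD59, the membrane protein that stops the complement pore from forming, had 5 SNPs close together on chromosome 15, 4 of them called, and all 5 differed between fetuses. At 15:62539835 8 of 8 fetuses were above 0.5, from 0.506 to 0.626 (pooled 0.585, likelihood ratio adjusted P = 3.25e-25). At 15:62539435 RS920 had 0.478, RS926 0.462, RS933 0.461, RS940 0.444 and RS937 0.387, all below 0.5. The missense SNP 15:62539774 was equal in the sum (0.506), with a dispersion of 7.42 between its 9 fetuses. CD93, a receptor of endothelial and myeloid cells once taken for a C1q receptor, had 0.559 at 13:40981638 (likelihood ratio adjusted P = 9.76e-11).

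In the TNF and NF-kB group the median share was 0.511, and the largest distances from 0.5 were in NFKBIA, NFKB and TNFRSF21. NFKBIA encodes the inhibitor that holds NF-kB in the cytoplasm. At 18:44535033 in its 3′ UTR RS930 had 0.840, RS905 0.874, RS937 0.885, RS910 0.898 and RS920 0.920 (pooled 0.886, likelihood ratio adjusted P = 1.08e-85), and the fetuses did not differ beyond counting error (dispersion 0.841). Homozygous reference animals carried alternate reads at both NFKBIA SNPs, 9.18% and 10.2%, and the 2 SNPs lie 5 bases apart.

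A gene that the table names NFKB had AI at adjoining bases of chromosome 22. At 22195661 the reference share was 0.694 and at 22195662 it was 0.309, each with all 18 fetuses heterozygous and on the same side of 0.5. The reads were 892 reference and 394 alternate at 22195661, and 398 and 891 at 22195662. The shares of each fetus nearly mirrored each other, and adjoining bases share almost all their reads. The opposite directions therefore do not count as separate imbalances. The remaining NFKB SNP, 22196164, was at 0.502. TNFRSF21, a death receptor of the TNF receptor family, had 0.639 at 20:20464914, with 9 of 9 fetuses between 0.542 and 0.750 (likelihood ratio adjusted P = 1.54e-13), and 0.627 at the SNP 26 bases away. At a further TNFRSF21 SNP, 20462759, homozygous reference animals held 17.7% alternate reads and only 1 fetus was called heterozygous. NLRX1, a mitochondrial member of the NOD-like family, had 0.614 at 15:29236360 with 7 of 8 fetuses above 0.5.

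Smaller imbalances stood at NFKB1, the p105 subunit (0.553), TNFRSF1A, the main TNF receptor (0.534), TNFAIP8 (0.571), NFKBIL1 (0.572) and TRAFD1 (0.434, with 5 of 5 fetuses between 0.417 and 0.446). The quasi-binomial F test ended all 5 of these calls (adjusted P of 0.0748 to 0.138), and leaving out single fetuses ended them in 4: NFKB1 (without RS903, RS920, RS926 or RS940), NFKBIL1 (RS929 or RS933), TNFAIP8 (RS920 or RS969) and TRAFD1 (any of its 5 fetuses), with adjusted P of 0.0528 to 0.255. No SNP was called in TLR4 (the receptor for bacterial lipopolysaccharide), MYD88 (its adaptor), TRAF4, TRAF7, NFKBIB, NFKBIZ, TNFRSF1B or TNFAIP8L1. Calls appeared without RS969 for MYD88, without RS902 or RS940 for TRAF7, and without RS902, RS917, RS930 or RS933 for TNFAIP8L1 (adjusted P of 0.0172 to 0.0479). TLR4 had a single SNP with 25.4 reads per fetus (72 reference and 80 alternate reads over 6 heterozygous fetuses), so a small difference could go uncalled there. The size of difference that could be called was not tested.

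Among cytokines, IL33, an alarm cytokine released by damaged barrier cells and fat stroma, had AI at 1 of 5 SNPs. At 2:73770937 RS902 had 0.727, RS917 0.723, RS905 0.635, RS940 0.624 and RS910 0.504 (likelihood ratio adjusted P = 2.65e-08). RS910 was at equality and the other 4 fetuses above it. IL6ST, the gp130 chain shared by receptors of the interleukin 6 family, had 0.645 at 16:23309677 with 6 of 6 fetuses between 0.600 and 0.710. The IL6ST splice region SNP 16:23275567 had 0.637, with 11 of 12 fetuses above 0.5. At the first of them homozygous reference animals held 6.36% alternate reads. IL4R, whose splice region SNP was at 0.537, was not called.

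Some cytokine genes outside the naming rule were chosen after their values were seen. IL17RC, a receptor chain for interleukin 17, had the alternate allele higher in 11 of 11 fetuses at 19:16740011, in a narrow range of 0.393 to 0.472 (pooled 0.438, likelihood ratio adjusted P = 4.14e-12). CCL14, a chemokine for monocytes, had 0.467, with 8 of 10 fetuses below 0.5. CSF1R, the receptor that keeps macrophages alive, had 2 of 5 SNPs called, at 0.594 and 0.599. No SNP of IL1R1, IL27RA or CCRL2 was called.

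FCGRT, the receptor that recycles IgG and albumin, had the most reads of all members, 2757 per fetus at 14:54993481, and a reference share of 0.508 with 6 of 11 fetuses above 0.5, which is above equality but below the median share of all SNPs. The likelihood ratio test called it (adjusted P = 0.0168), the quasi-binomial F test did not (adjusted P = 0.196), and its call was lost without RS905, RS917 or RS937 (adjusted P of 0.125 to 0.211). LGALS8, a galectin that marks damaged vesicles, had 22 SNPs and 14 with AI, 12 for the reference allele. At 25:9226930, downstream of LGALS8, 14 of 15 fetuses were above 0.5 (0.488 to 0.727, likelihood ratio adjusted P = 1.79e-11), whereas 2 intron SNPs of the gene were at 0.401 and 0.416. MRC1, the mannose receptor of tissue macrophages, had shares of 0.384 to 0.445 at 3 SNPs, 2 of them called. CD14 and CD163, other macrophage receptors, had no SNP called.

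CD97, an adhesion receptor of leukocytes, had the most SNPs of any member, 38, of which 17 had AI, 14 for the reference allele. At the missense SNP 5:9457013 the 14 fetuses ranged from 0.462 to 0.914 with 13 above 0.5 (pooled 0.727, likelihood ratio adjusted P = 5.47e-23), and they differed (dispersion 3.99). A CD97 SNP annotated as a gained stop codon, 5:9462044, was heterozygous in 15 fetuses, with a reference share of 0.525 that was not called. At 4 CD97 SNPs 3.85% to 4.17% of the reads under a homozygous reference call were alternate. At 5:9457013 this was 1 of 24 reads, in 1 fetus.

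CD200, a ligand that restrains macrophages, had 0.617 at 1:175498607, where 18 of 18 fetuses were heterozygous and lay between 0.566 and 0.665 (likelihood ratio adjusted P = 5.05e-52). At 1:175498658 its 9 fetuses ran from 0.410 to 0.714 with a dispersion of 6.86, and the quasi-binomial F test ended the call. CD276, an inhibitory relative of the B7 family, had 0.771 at 7:20129683 with 6 of 6 fetuses above 0.5. At the missense SNP 7:20130012 in CD276, 18 of 18 fetuses were heterozygous and their shares ran from 0.164 to 0.623 (pooled 0.406, dispersion 5.21). CD81, a tetraspanin with 1303 reads per fetus, had a small difference that its 5 fetuses shared (0.516 to 0.562, likelihood ratio adjusted P = 3.85e-07). CD34, a marker of vessel and stromal progenitor cells, was at 0.520, called by the likelihood ratio test (adjusted P = 0.0107) but not by the quasi-binomial F test (adjusted P = 0.145) and not without RS903 or RS933 (0.149 and 0.141).

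Some features of the sites moved with the calls. Of 42 member SNPs with another SNP of the table within 5 bases, 32 (76.2%) had AI and the median share was 0.659, while 68.0% of such SNPs had AI in the whole table. Of the other 403 members 165 (40.9%) had AI, beside 34.5% of such SNPs in all genes. The 43 members heterozygous in 15 or more fetuses included 32 with AI (74.4%, and 68.2% of all such SNPs). At 24 member SNPs all 18 half-sibs were called heterozygous. These were in STAT5B (5), CD276 (6), IRF2BP1 (6), C4 (4), NFKB (2) and CD200 (1), their median share was 0.691, and 21 had AI (87.5%). Over all genes 1319 SNPs were heterozygous in every fetus, of which 1056 (80.1%) had AI, and their median share was 0.582. The part of these features in the shares was not tested.

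By the annotation in the table, 60 of 119 missense member SNPs (50.4%) had AI, beside 41.1% of missense SNPs in all genes. Synonymous member SNPs had AI at 90 of 225 (40.0%, and 34.4% over all genes), SNPs in 3′ UTRs at 19 of 47 (40.4% and 42.4%) and downstream SNPs at 22 of 35 (62.9% and 40.2%). Of 8 members at a stop, start or splice position 2 had AI (25%, and 61.4% over all genes), in IL6ST and STAT5A.

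In 11 genes SNPs with a higher reference allele stood beside SNPs with a higher alternate allele: C1R, C1S, C4, C7, CD276, CD59, CD82, CD97, CFB, LGALS8 and NFKB. In NFKB these were the SNPs at adjoining bases, whose shares mirrored each other, so they do not count as separate imbalances. The direction given is that of the reference base at each SNP, and haplotypes were not phased. In the C7 run of 6 SNPs, 2 were mirrored from their shares alone.

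Further interferon and innate immune genes that the symbol pattern does not take were listed apart. Of 51 such genes 29 had SNPs, with AI at 37 of 109 SNPs (33.9%, background 38.0%) in 14 of the 29 genes (48.3%, background 58.5%), 28 for the reference and 9 for the alternate allele. Both shares were below the background, and the difference was not tested. TRIM25, a ubiquitin ligase that activates an RNA sensor, had 15 of 21 SNPs called. SERPING1, the inhibitor of C1R and C1S, had 3 of 4 SNPs called, all for the reference allele. RSAD2 and EIF2AK2, other interferon-induced antiviral genes, had no SNP called.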

How the data were processed

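Paired end RNA-Seq libraries were made from perirenal fat of 18 fetuses. The authors aligned the reads to Oar v3.1 with STAR and used GATK (3.4-46 per the labels) to find SNPs and genotypes in those RNA reads. They kept SNPs in annotated genes, outside simple repeats, where 5 or more animals had 10 or more reads of both alleles. The deposited values are raw counts of reads with either allele per SNP and animal, without normalization, with a genotype call. The authors' own statistic, P-value, higher allele and reference proportion were not used. The members and lists were chosen with earlier results of these data known.

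Counts were summed at each SNP over animals called heterozygous. AI was tested with the Poisson likelihood ratio test (2 times the log likelihood ratio, chi-square with 1 degree of freedom), two-sided, for every SNP with at least 1 heterozygous animal, with Benjamini-Hochberg adjustment over the whole table and calls at 0.05. Differences between animals were tested with a Pearson chi-square. An exact sign-flip permutation test over animals, two-sided, was run at the 76 named SNPs and not adjusted over them. Reads carry no molecular identifiers, so the likelihood ratio test covers counting error only. Alternatives were a quasi-binomial F test (limma 3.58.1, R 4.3.3), a null at the median share, a coverage of 30 reads, down-sampling to 50 reads in 20 rounds, no SNP with a neighbour within 5 bases, no SNP heterozygous in 15 or more animals, at least 5 heterozygous animals, any animal with 10 reads of each allele, and leaving out each animal. The code was tested on simulated data with Python 3.11.15, NumPy 2.4.6, pandas 2.3.3 and SciPy 1.17.1.

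Named SNPs were, by rule, the SNP with the smallest P of each interferon, complement and TNF or NF-kB gene, the 10 genes with the largest one-way shares, the 5 with the largest dispersion, up to 6 with calls in both directions, the 3 with most SNPs, stop, start and splice SNPs, and the 5 with most reads. The table header writes RS910 as PS910. Gene synonyms are from the RefSeq table of another assembly, ARS-UI_Ramb_v3.0. Results that need an item withheld for evaluation are not reported here, though counts over groups of genes include every member.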

Additional observations from a re-analysis of the deposited data

Results flagged for a closer look

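At 26:13625795 in IRF2, RS902 had a reference share of 0.28 (14 reference and 36 alternate reads), while the other 8 fetuses lay between 0.4 and 0.5. At 1:259750739 in MX1, RS930 had 0.25 (15 and 45 reads), while the other 9 fetuses lay between 0.393 and 0.544. Each was farther from the nearest fetus, relative to the range of its group, than Dixon's 95% critical value. Chance flags about 1 in 20 groups, and 52 groups of 4 to 10 fetuses were examined.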

How the results depend on the processing

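Of 197 member SNPs and 69 member genes with AI, the quasi-binomial F test called 126 and 47, a coverage of 30 reads 105 and 45, and down-sampling to 50 reads 140 and 51. The share of tested member SNPs was 28.4% by the quasi-binomial F test (24.5% of all SNPs) and 31.6% after down-sampling (26.5% of all SNPs). No share over all SNPs is given for the coverage of 30 reads. The 85 SNPs whose animals differed became 146 at an unadjusted P, 56 at a coverage of 30 reads and 32 after down-sampling. The cause was not tested, but fewer SNPs (195) could be tested at that coverage. Leaving out each fetus gave 188 to 207 SNPs and 63 to 72 genes with AI, and 73 to 84 SNPs whose animals differed. The remaining alternatives moved these counts by less than 1.5 times. With the null at the median share the side changed for JAK1 1:40073315 (0.502), NFKBIB 14:47805523 (0.516), FCGRT 14:54993481 (0.508) and CD59 15:62539774 (0.506). Leaving out single fetuses moved the share across 0.5 at CD59 15:62539774 (0.491 to 0.515), TLR4 2:5858953 (0.454 to 0.504), C1S 3:207363817 (0.483 to 0.510) and JAK1 1:40073315 (0.449 to 0.535), none of which was called. Among the 76 named SNPs the quasi-binomial F test kept the side of the threshold at 58 and ended the call at 18. The null at the median ended 10 calls and added 4. No paired analysis was possible because the series has 1 condition. Depth limits SNPs with few reads, where only large differences could be called.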
